A study of Mus musculus with 2 samples.

Results

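The interleukin genes were the mouse gene symbols that begin with Il and a digit, which gave 85 of the 40879 symbols in the deposited count files. They comprised 38 cytokines, 38 receptor chains, 6 soluble or membrane antagonists and decoys, and 3 others, which were an antisense transcript of Il1b and a pair of genes named for an enzyme induced by IL-4. The tissue was the intestine of mice on a C57BL/6 background, aged 8 weeks when assigned to groups, wild type (WT) or heterozygous for Erap1 (ERAP1+/-), the gene for an aminopeptidase of the endoplasmic reticulum that trims peptides for MHC class I. In the targeted allele loxP sites flank exons 6 and 7, and a Cre strain whose promoter the sources used here do not name removed them. The labels name no treatment, and the study's discussion describes the sequenced comparison as one of mice at steady state. The methods call the mice germ-free while housing them in a specific pathogen-free facility. RNA of 3 mice was pooled for each genotype and sequenced as 1 library of reads from the 3' ends of mRNA.

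Interleukins are secreted proteins through which immune, epithelial and stromal cells signal to each other. Most act through receptors built from several chains, some of which are shared, such as the common gamma chain, gp130 and the second chain of the IL-10 and IL-22 receptors. Soluble binding proteins, receptor antagonists and receptors without a signalling part hold several of them in check. In the gut, IL-18, IL-22 and the IL-17 and IL-36 families act at the epithelial barrier, while IL-10 restrains inflammation.

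With 1 library for each genotype there is no replicate, no test was made and no p-value is given. For each gene the reads were scaled to reads per 1000000 (CPM) by library size and edgeR's TMM factor, and the ratio of the libraries was given with its exact 95% interval. Such intervals cover counting error only, and they compare these libraries, not the genotypes. Where a pair of values is given, the WT library comes first. A gene was called higher or lower where it had at least 10 reads over both libraries and its interval excluded 1. The libraries held 8114826 reads (WT) and 8907515 reads (labelled ERAP1+/-).

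Erap1 had 229 WT reads and 2 in the library labelled ERAP1+/-, which is 0.730% of the WT level (95% interval 0.0878 to 2.67%). This goes against a genotype with 1 intact allele, so that library is called by its label. The reads come from the 3' end of the transcript, outside the deleted exons, and so do not check the deletion. Xist (1635 and 6451 reads) and the Y-linked Ddx3y (319 and 29 reads) also differed, and differences in sex and genotype between the pools cannot be told apart. Of the interleukin genes, Il2rg, Il13ra1, Il13ra2, Il1rapl1 and Il1rapl2 lie on chromosome X.

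Of the 85 interleukin genes, 41 had at least 10 reads over both libraries, 21 had 1 to 9 reads and 23 had no read. Together they held 7138 WT reads and 8340 in the library labelled ERAP1+/-, or 919 and 897 CPM (ratio 0.976, 95% interval 0.945 to 1.01). Of the cytokines, 20 had no read in either library and 11 had at least 10. Of the receptor chains, 24 had at least 10 reads and 1, Il11ra2, had none. All 6 antagonists and decoys had at least 10 reads. Receptors were thus detected more widely in this tissue RNA than the cytokines that bind them.

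Among the 41 genes, 25 were called, against 44.4% of the 16142 genes with as many reads. Of these, 10 were higher in the library labelled ERAP1+/-, where 20.6% of all genes were, and 15 were lower, where 23.8% of all genes were. With scaling by the total count alone the split was 14 higher and 11 lower, and that scaling moved the median of all genes by 0.12 on the log2 scale. The median log2 difference of the 41 genes was -0.12 beside 0.00 for all genes. Called genes included 2 higher and 5 lower of 11 cytokines, 6 higher and 6 lower of 24 receptor chains, and 2 higher and 4 lower of 6 antagonists and decoys.

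No interleukin gene was more than 2-fold different among the 14 that reached a level of 4 on the log2(CPM + 1) scale in 1 or both libraries, a rule that 5.34% of 8013 genes met. The ratios of these 14 lay between 0.597 for Il22ra1 and 1.77 for Il1r1. The differences of more than 2-fold lay among genes of fewer reads. The whole interval lay past 2-fold for 4 of the 41 genes, against 4.96% of all genes with at least 10 reads, a rule chosen after the data were seen. They were Il36rn and Il36a, which were lower, and Il2rg and Il22ra2, which were higher.

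**Figure D1:**
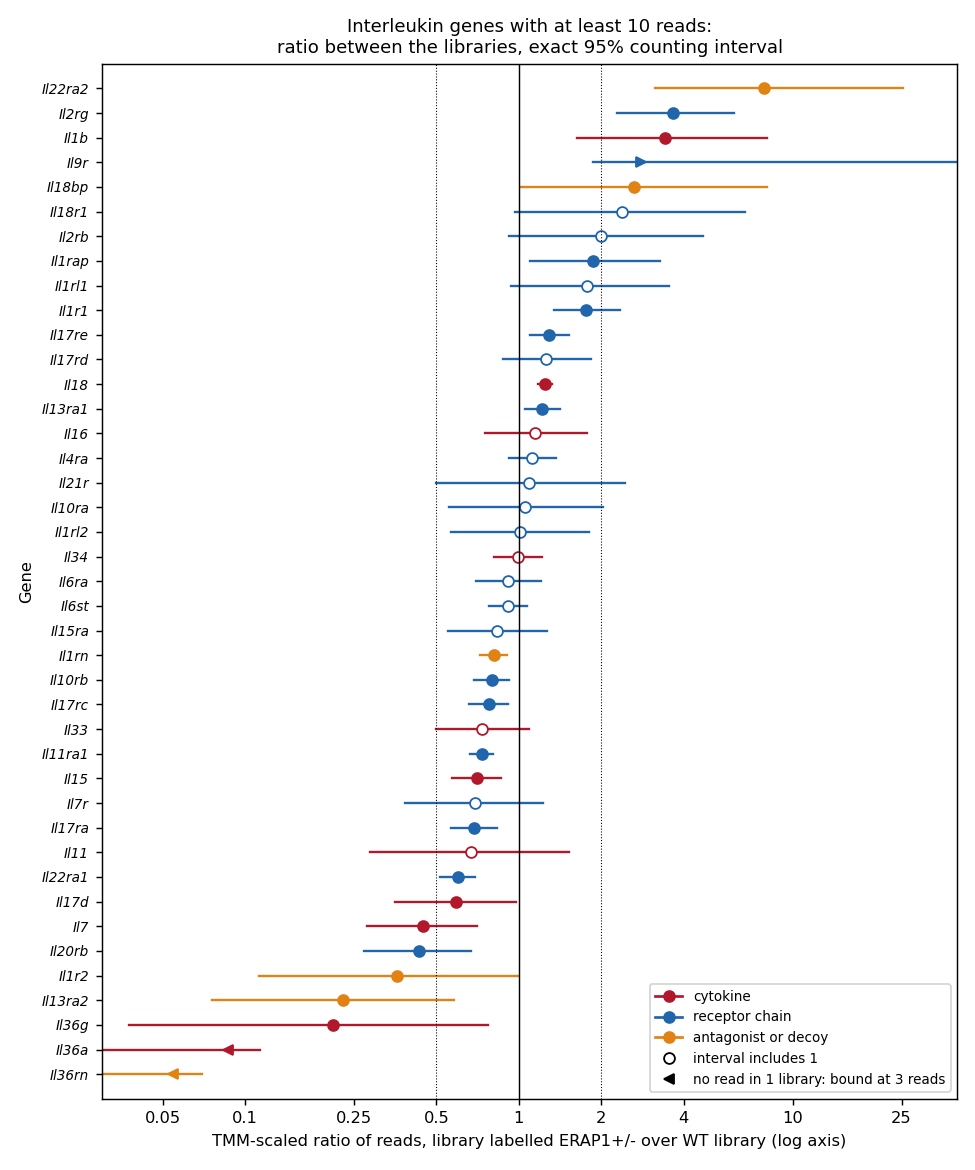
Ratio of TMM-scaled reads, library labelled ERAP1+/- over WT library (log axis), of the 41 interleukin genes with at least 10 reads, with exact 95% counting intervals as lines and colours for the role. Filled points mark the 25 genes whose interval excludes 1, triangles the 3 genes with no read in 1 library, drawn with 3 reads there, and dotted lines 2-fold; Il36rn and Il22ra2 stand at the ends.

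**Figure D2:**
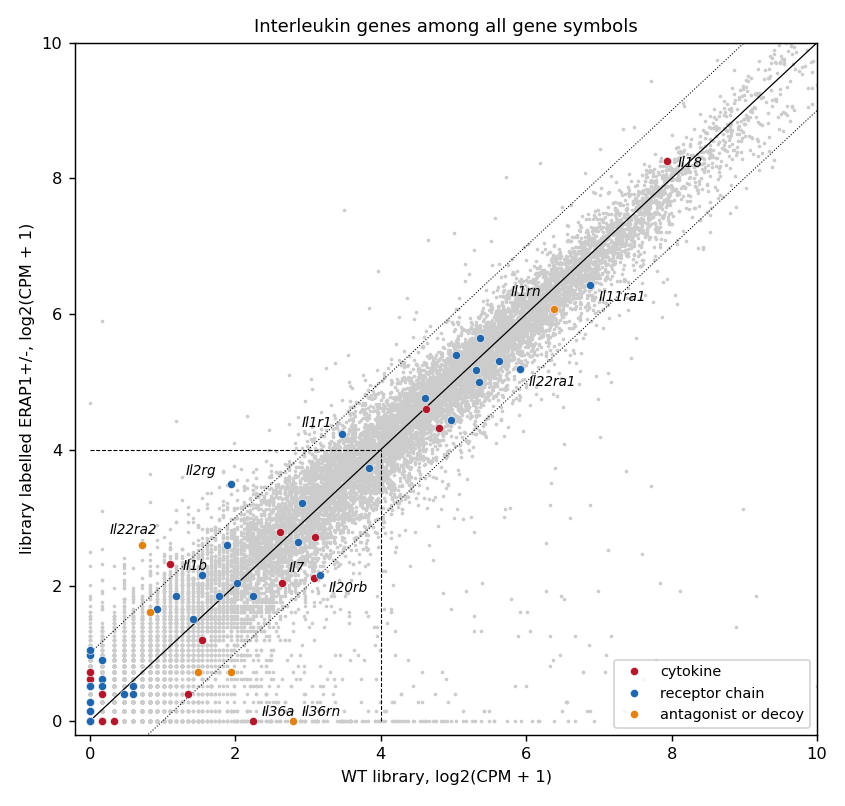
Level of every gene symbol with a read as log2(CPM + 1) in the WT library (x axis) and the library labelled ERAP1+/- (y axis), grey, with interleukin genes coloured by role; both axes end at 10, and dotted lines mark 2-fold. No coloured point beyond the dashed level of 4 lies outside 2-fold, and Il36a and Il36rn lie on the x axis.

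The genes with at least 10 reads of which none was in the library labelled ERAP1+/- were both in the IL-36 group, cytokines of the IL-1 family best known from stratified epithelia. Il36rn, the receptor antagonist of the group, had 46 WT reads and none in the library labelled ERAP1+/-. By the exact 95% interval it was at least 14.3-fold lower, and 46 reads taken without error stand 18.4-fold above the 3 reads that a count of 0 allows. Il36a, an agonist, had 29 reads and none and was at least 8.83-fold lower by that interval, or 11.6-fold against 3 reads. Il36g, a second agonist, had 12 and 3 reads, 4.79-fold lower (95% interval 1.29 to 26.4). Il36b, the remaining agonist, had 1 and 0 reads. Agonists and antagonist thus shared a direction. Their sum was 88 reads (WT) and 3 reads, 35.1-fold lower (95% interval 11.6 to 174). Their receptor chain Il1rl2 had 24 and 29 reads (ratio 1.01, 95% interval 0.567 to 1.81).

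These genes lie in 1 cluster on chromosome 2 (GRCm38, GENCODE M21), where the annotation lists them under older symbols. Il36rn spans chr2:24276954-24283426 and Il36a chr2:24215418-24225702, both on the forward strand. Measured from the start of Il1rn, the starts lie 184 kb (Il36b), 150 kb (Il36g), 121 kb (Il36a) and 59.9 kb (Il36rn) upstream. Il1f10, 45.7 kb upstream, had no read in either library. Il1rn itself, at the end of the row, had 639 and 619 reads. Il1rn thus differed far less between the libraries than Il36a and Il36rn beside it.

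**Figure D3:**
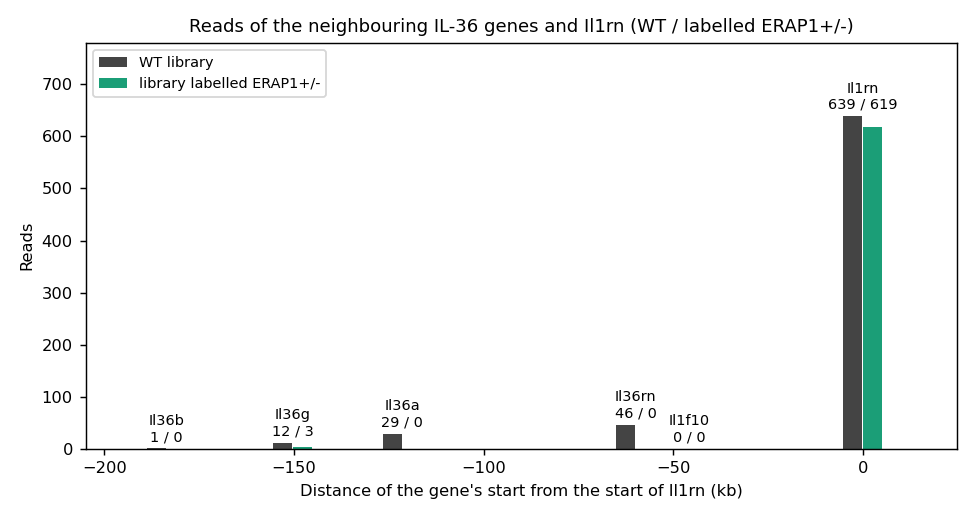
Reads (y axis) of the IL-36 genes, Il1f10 and Il1rn at the distance of their start from the start of Il1rn in kb (x axis), WT library dark and library labelled ERAP1+/- green. Il36a and Il36rn have 29 and 46 reads in the WT library and none in the other, while Il1rn has 639 and 619.

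Markers of skin moved with the IL-36 genes. A list of 19 suprabasal epidermis genes summed to 3730 CPM (WT) and 24.7 CPM in the library labelled ERAP1+/-, and all 18 with enough reads were lower. Krt2 had no read in either library, and Krt77, Ivl, Lce1a1, Dsc1, Dsg1a, Dsg1b, Klk5 and Klk7 had none in the library labelled ERAP1+/-. A list of 12 basal stratified epithelium genes summed to 1450 and 750 CPM, with 12 of 12 lower and Trp63 at 0 in the library labelled ERAP1+/-. In that list 5 of the 10 genes past the level of 4 were more than 2-fold lower. Of these 5, Krt5, Krt14, Krt15 and Krt17 reached the level only in the WT library, so the level kept genes that were high there. The smallest differences in the list were those of Itga6 (1.15-fold lower), Dst (1.19-fold lower) and Lama3 (1.32-fold lower). A list of 17 skeletal muscle genes summed to 1414 and 25.7 CPM, with 17 of 17 lower. Colon epithelium genes summed to 13686 and 13313 CPM, and all 16 passed the level of 4 in 1 or both libraries. Of these, 5 were higher and 9 lower, with Muc2 2.29-fold higher (12020 and 32939 reads) and Krt20 2.31-fold lower (5156 and 2674 reads) past 2-fold. The part of the skin genes in the IL-36 difference was not tested, and in bulk tissue fewer cells of a type and less RNA per cell cannot be told apart.

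**Figure D4:**
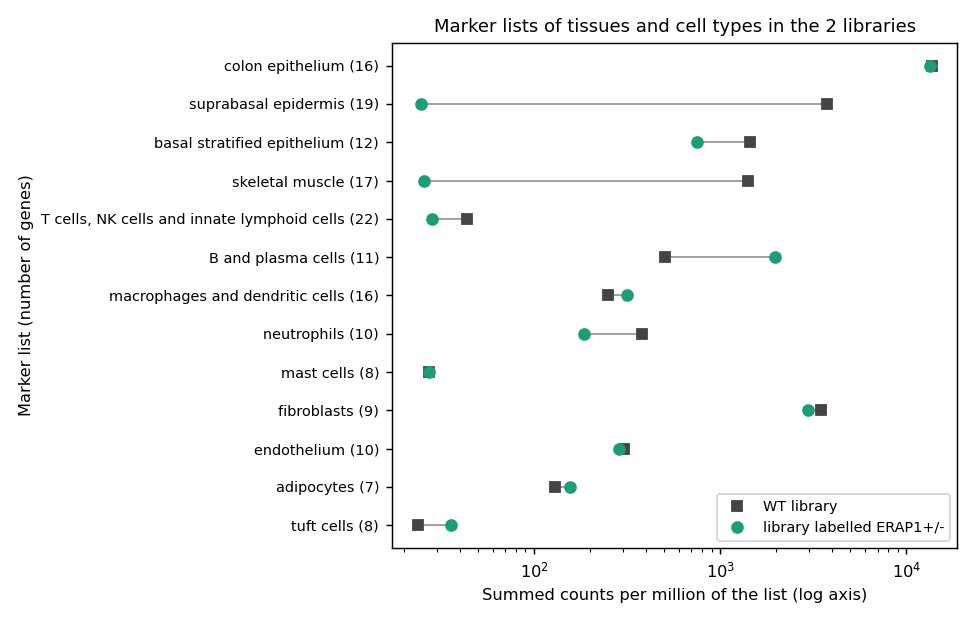
Summed CPM (log axis) of marker lists for tissues and cell types, with the number of genes in brackets, in the WT library (squares) and the library labelled ERAP1+/- (circles). Suprabasal epidermis (3730 and 24.7 CPM) and skeletal muscle (1414 and 25.7 CPM) lie far apart, while the sum of the colon epithelium list (13686 and 13313 CPM) nearly coincides.

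The 250 bases before the RefSeq start sites (GRCm38.p6) are shown for 4 IL-1 family genes that differed in opposite ways, Il36rn, Il36g and Il1rn, which were lower, and Il1b, which was higher. They are chr2:24276704-24276953 (+) for Il36rn, chr2:24186226-24186475 (+) for Il36g, chr2:24336610-24336859 (+) for Il1rn and chr2:129371140-129371389 (-) for Il1b, with the start nearest to the 5' end where a gene has several. Capitals mark matches to the motifs named after them.
Il36rn: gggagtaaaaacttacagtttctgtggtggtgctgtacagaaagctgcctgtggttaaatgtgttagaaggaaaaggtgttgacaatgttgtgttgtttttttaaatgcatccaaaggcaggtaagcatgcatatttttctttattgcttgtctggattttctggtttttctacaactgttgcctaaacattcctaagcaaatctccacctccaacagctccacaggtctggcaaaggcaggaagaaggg
Il36g: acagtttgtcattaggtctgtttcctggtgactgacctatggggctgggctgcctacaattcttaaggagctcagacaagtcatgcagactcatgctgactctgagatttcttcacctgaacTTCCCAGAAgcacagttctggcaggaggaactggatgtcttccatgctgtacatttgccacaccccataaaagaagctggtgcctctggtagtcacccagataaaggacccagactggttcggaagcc
Il1rn: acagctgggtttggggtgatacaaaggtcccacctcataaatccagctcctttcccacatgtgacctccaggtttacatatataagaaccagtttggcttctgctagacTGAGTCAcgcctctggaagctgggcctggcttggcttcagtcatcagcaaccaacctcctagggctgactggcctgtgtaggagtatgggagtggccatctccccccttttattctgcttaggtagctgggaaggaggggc
Il1b: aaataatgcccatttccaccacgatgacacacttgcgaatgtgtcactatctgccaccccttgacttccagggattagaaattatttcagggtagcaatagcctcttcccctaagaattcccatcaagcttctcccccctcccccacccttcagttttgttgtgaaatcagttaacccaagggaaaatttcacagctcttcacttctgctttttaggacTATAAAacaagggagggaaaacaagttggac
The search took both strands of 300-base windows, 250 before to 50 after each start, for TATAAA, a core promoter element, TGANTCA, an AP-1 motif, TTCNNNGAA, a STAT motif, and the NF-kB consensus. The Il36g window held a STAT match that begins 128 bases before the start, and the Il1rn window an AP-1 match 141 bases before it. Il1b had a TATAAA match 31 bases before its start. Il36rn had no match at the start shown and a STAT match 98 bases before its second start. The second start of Il1rn had no match, and the third a TATAAA match 14 bases after it. Of the interleukin genes, 68 had 83 windows, of which 14 (16.9%) held TATAAA, 14 (16.9%) an AP-1 match, 11 (13.3%) a STAT match and 7 (8.43%) an NF-kB match. Over all 32851 windows the shares were 13.6%, 7.81%, 8.30% and 4.51%. A match is a run of letters and not a site shown to be bound.

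In the IL-1 system the agonist and its signalling receptor were higher in the library labelled ERAP1+/- and the antagonist and decoy lower. Il1b, the secreted agonist, had 9 WT reads and 37 in the library labelled ERAP1+/-, 3.43-fold higher (95% interval 1.63 to 8.09). Il1a, the agonist kept within cells, had 2 and 0 reads. Il1r1, the signalling receptor, had 78 and 165 reads (10.04 and 17.7 CPM) and a ratio of 1.77 (95% interval 1.34 to 2.34). Its partner chain Il1rap, which the IL-33 and IL-36 receptors share, had 21 and 47 reads (ratio 1.87, 95% interval 1.10 to 3.29). Both chains of the IL-1 receptor thus had more reads, as did the agonist.

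The antagonists of IL-1 went the other way. Il1rn, the receptor antagonist and the most read of all antagonists here, had 82.2 CPM (WT) and 66.5 CPM in the library labelled ERAP1+/-, 1.24-fold lower (95% interval 1.10 to 1.38). Il1r2, a decoy receptor that binds IL-1 without a signal, had 14 and 6 reads, 2.79-fold lower (95% interval 1.01 to 8.87). Its interval only just excluded 1, and included it with scaling by the total count or with the deeper library thinned. The neuronal relatives Il1rapl1 and Il1rapl2 had 0 and 9 reads and 0 and 1 read. Il1b overlaps the antisense Il1bos, which had no read of its own.

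Il18, a cytokine stored as a precursor in gut epithelium, had more reads than any other interleukin gene. Its 1893 WT reads and 2828 in the library labelled ERAP1+/- correspond to 244 and 304 CPM (ratio 1.25, 95% interval 1.18 to 1.32). Without Il18 the remaining 84 genes summed to 5245 and 5512 reads (ratio 0.878, 95% interval 0.845 to 0.912). The gene overlaps Bco2 and Tex12 on the opposite strand. Il18bp, the soluble protein that neutralises IL-18, had 6 and 19 reads, 2.65-fold higher (95% interval 1.02 to 8.09), a call lost with the deeper library thinned. Il18r1, the binding chain of the receptor, had 7 and 20 reads (ratio 2.39, 95% interval 0.969 to 6.68), and its partner Il18rap had 1 and 8 reads. Il18r1 was called higher with the deeper library thinned (95% interval 1.002 to 7.01) and with scaling by the total count (95% interval 1.06 to 7.29).

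Il33, an alarmin held in the nucleus of epithelial and stromal cells, had 59 and 52 reads (ratio 0.736, 95% interval 0.497 to 1.09). Its receptor chain Il1rl1, found on mast cells and type 2 lymphocytes, had 15 and 32 reads (ratio 1.78, 95% interval 0.937 to 3.54). Neither passed the rule. Mast cell markers, a list of 8 genes, summed to 27.2 CPM in each library, with Kit higher, 4 lower of 6 and Fcer1a at 0 in both. The equal sums hid opposite differences, as Kit alone held 9.27 and 21.7 CPM. The 4 lower genes were Mcpt4 (34 and 3 reads), Tpsb2 (50 and 9 reads), Cpa3 (16 and 6 reads) and Cma1 (24 and 9 reads).

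**Figure D5:**
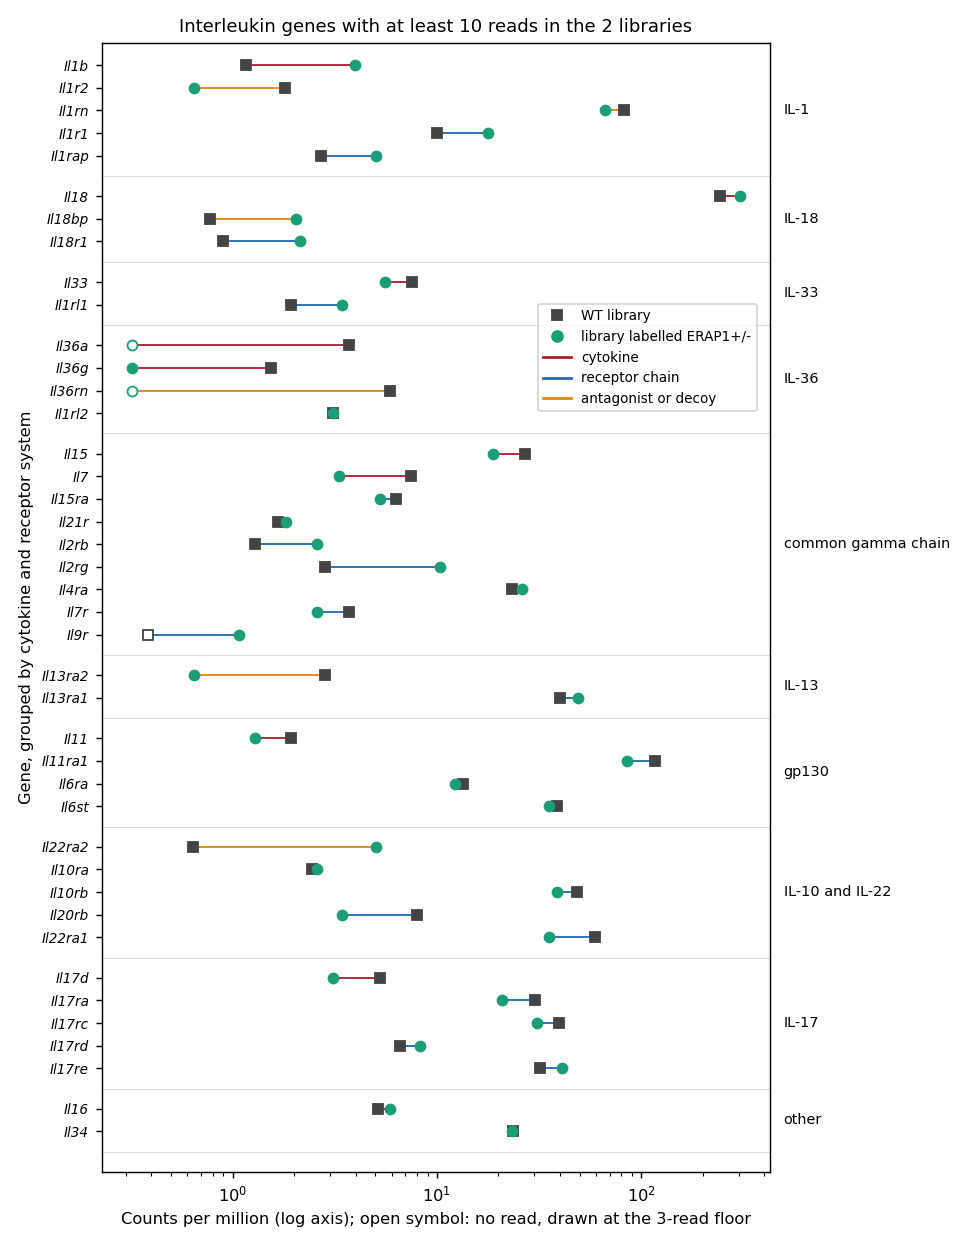
CPM (log axis) of the 41 interleukin genes with at least 10 reads, grouped by cytokine and receptor system, in the WT library (squares) and the library labelled ERAP1+/- (circles), with line colours for the role and open symbols for no read, drawn at the 3-read floor. In the common gamma chain group Il2rg lies to the right in the library labelled ERAP1+/- (10.3 against 2.83 CPM) while Il7 and Il15 lie to the left.

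In the group that signals through the common gamma chain, the shared chain and the cytokines differed in opposite ways. Il2rg, the common gamma chain itself (chrX:101264378-101268255), had 22 WT reads and 96 in the library labelled ERAP1+/-, 3.64-fold higher (95% interval 2.28 to 6.09). It overlaps the annotated Gm20489 on the same strand. Il9r, which pairs with that chain, had 0 and 10 reads and was 1.87-fold higher or more by the exact interval, or 2.78-fold against 3 reads. Il2rb, the chain shared by IL-2 and IL-15, had 10 and 24 reads (ratio 2.005, 95% interval 0.924 to 4.70).

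Il15, which maintains intraepithelial lymphocytes, had 209 and 176 reads (26.9 and 18.9 CPM), 1.42-fold lower (95% interval 1.16 to 1.75). Il7, a survival factor of lymphocytes made by epithelium and stroma, had 58 and 31 reads, 2.24-fold lower (95% interval 1.42 to 3.58). No other cytokine of the group reached 10 reads, so that both measured cytokines were lower. Their own receptor chains were not called, with 49 reads in each library for Il15ra (ratio 0.835, 95% interval 0.551 to 1.27) and 29 and 24 reads for Il7r (ratio 0.691, 95% interval 0.385 to 1.23). Il4ra, which pairs with the common gamma chain or with Il13ra1, had 182 and 244 reads (ratio 1.12, 95% interval 0.920 to 1.36). Il21r had 13 and 17 reads, and Il2ra, the high-affinity IL-2 chain, had 1 and 5. The whole group summed to 573 and 676 reads (ratio 0.985, 95% interval 0.880 to 1.10).

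Markers of B and plasma cells moved with Il2rg, which lymphocytes express widely. The 11 genes of that list summed to 505 CPM (WT) and 1979 CPM in the library labelled ERAP1+/-, with 7 higher and 2 lower of 10 and none at 0. The B cell genes Cd79b (5 and 50 reads), Ms4a1 (13 and 38 reads) and Pax5 (33 and 78 reads) were among the 7, and Sdc1 and Prdm1 were lower. The list for T cells, NK cells and innate lymphoid cells summed to 43.5 and 28.3 CPM, with none of 10 higher, Gata3 among those lower and 12 genes under 10 reads. Cd3e, Cd8b1, Tbx21 and Gzma had no read in the WT library, and Cd8b1, Cd5 and Ncr1 none in the library labelled ERAP1+/-. The part of these cells in the Il2rg difference was not tested.

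For IL-13 the signalling chain and the decoy differed in direction. Il13ra1 had 312 and 456 reads (40.2 and 49.0 CPM) and a ratio of 1.22 (95% interval 1.05 to 1.41). Il13ra2, the decoy that takes up IL-13, had 22 and 6 reads, 4.39-fold lower (95% interval 1.73 to 13.2). Il13 and Il4 had no read in either library. Both receptor genes lie on chromosome X.

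Of the receptors built on gp130, Il11ra1 was lower. This binding chain for IL-11, a cytokine of stroma, had the most reads of any receptor chain, with 907 in the WT library and 794 in the library labelled ERAP1+/- (117 and 85.4 CPM), 1.37-fold lower (95% interval 1.24 to 1.51). Its locus overlaps Galt on the same strand and has the near copy Il11ra2, which was listed at 0, so its count is uncertain. Il6st, which encodes gp130, had 301 and 328 reads (ratio 0.910, 95% interval 0.776 to 1.07), and Il6ra had 104 and 114 reads (ratio 0.916, 95% interval 0.696 to 1.21). Neither IL-6 receptor chain was called, and Il6 itself had no read. Il11 had 15 and 12 reads and Il31ra 4 and 3. Fibroblast markers, beside which the IL-11 receptor is usually found, summed to 3491 and 2970 CPM, with 1 higher and 4 lower of 9 and none at 0.

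In the IL-10 and IL-22 group 3 receptor chains were lower and the soluble IL-22 inhibitor higher in the library labelled ERAP1+/-. Il22ra2, the soluble protein that binds and blocks IL-22, had 5 WT reads and 47 in the library labelled ERAP1+/-, 7.85-fold higher (95% interval 3.14 to 25.3), at chr10:19621998-19634681. Il22ra1, the epithelial chain of the IL-22 receptor, had 460 and 329 reads (59.2 and 35.4 CPM), 1.67-fold lower (95% interval 1.45 to 1.93). Il10rb, the chain that IL-10 and IL-22 share, had 378 and 361 reads (48.6 and 38.8 CPM), 1.25-fold lower (95% interval 1.08 to 1.45), but its interval included 1 with scaling by the total count. The inhibitor and both chains of the receptor thus differed in opposite ways, while Il22 and its near copy Il22b had no read in either library.

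Il20rb, which builds the receptors for IL-19, IL-20 and IL-24 in skin, had 62 and 32 reads, 2.32-fold lower (95% interval 1.49 to 3.67). Its partner Il20ra had 0 and 1 read. Il10ra, the chain that binds IL-10, had 19 and 24 reads (ratio 1.06, 95% interval 0.554 to 2.04), and Il10 had 1 and 3 reads. The group as a whole summed to 925 and 797 reads, 1.39-fold lower (95% interval 1.26 to 1.53). The values of the epidermal lists given for the IL-36 genes stand beside that of Il20rb as well, and their part in it was not tested.

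Markers of macrophages and dendritic cells, which are known to express Il22ra2, Il1b and Il18bp, were higher only in part. The 16 genes of that list summed to 251 CPM (WT) and 316 CPM in the library labelled ERAP1+/-, with 6 of 14 higher, 8 not called, none lower and none at 0. Csf1r (287 and 539 reads), Cx3cr1 (156 and 320 reads), Lyz2 (146 and 296 reads) and Itgax (16 and 46 reads) were among the 6. The macrophage genes Cd68 (73 and 86 reads), Adgre1 (60 and 64 reads), Mrc1 (325 and 357 reads) and Cd163 (34 and 35 reads) and the dendritic cell genes Flt3 (10 and 13 reads) and Zbtb46 (32 and 39 reads) were not called. Xcr1, Clec9a and Cd209a had at most 7 reads in each library, with more in the WT library. The neutrophil list of 10 genes summed to 382 and 186 CPM, with S100a8 (49 and 165 reads), S100a9 (52 and 171 reads) and Retnlg higher and Ly6g (2867 and 1367 reads) lower. Ly6g alone held 369 and 147 CPM, so the lower sum was that of Ly6g and hid the higher genes. The granule genes of the list, Mpo, Elane, Camp and Ngp, and Retnlg, had no read in the WT library, and Elane had none in either. The part of these cells in the differences was not tested.

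In the IL-17 group the receptor chains split. Il17ra, the common chain, had 235 and 193 reads (30.2 and 20.7 CPM), 1.46-fold lower (95% interval 1.20 to 1.77). Il17rc, its partner for IL-17A and IL-17F, had 309 and 288 reads (39.8 and 31.0 CPM), 1.28-fold lower (95% interval 1.09 to 1.51), a call lost with scaling by the total count. Il17re, the partner for IL-17C in epithelium, had 247 and 382 reads (31.8 and 41.1 CPM) and a ratio of 1.29 (95% interval 1.10 to 1.52). Both chains of the IL-17A receptor were lower and the epithelial IL-17C chain higher.

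Il17rd had 51 and 77 reads (ratio 1.26, 95% interval 0.874 to 1.83) and Il17rb, the chain for IL-25, had 4 in each library. Of the cytokines, Il17d had 41 and 29 reads, 1.69-fold lower (95% interval 1.03 to 2.82), which was lost with that scaling and with thinning, and Il17c had 1 and 0. Il17a, Il17f and Il25 had no read. A count of 0 allows up to 0.386 CPM (WT) and 0.322 CPM in the library labelled ERAP1+/-, so low levels of these cytokines were not detectable at this depth.

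The IL-12 group had few reads, nearly all in the library labelled ERAP1+/-. Its 8 genes summed to 4 and 26 reads (ratio 5.43, 95% interval 1.88 to 21.4). Il12b, the subunit that IL-12 and IL-23 share, had 0 and 6 reads, Il12a 0 and 5, and Il23a 0 and 1. The receptor chains Il12rb1 and Il23r had 0 and 4 reads each, Il27ra had 0 and 2, and Il12rb2 had 4 in each library. No gene of the group reached 10 reads, so none was called. The 21 interleukin genes with 1 to 9 reads, these among them, summed to 23 and 68 reads. Of the 21, 14 had more in the library labelled ERAP1+/-, 4 more in the WT library and 3 the same number. These are reads without scaling, and the library labelled ERAP1+/- was the deeper. The share over all genes with 1 to 9 reads was not calculated, so the split is not shown to be particular to interleukins.

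Outside these systems Il34, a ligand of the receptor Csf1r, had 183 and 217 reads (23.6 and 23.3 CPM) and a ratio of 0.991 (95% interval 0.810 to 1.21). Il16, a chemoattractant for cells bearing CD4, had 40 and 55 reads (ratio 1.15, 95% interval 0.751 to 1.77). Il5ra had 1 and 4 reads, and Il3ra had 3 in each library. Over all 41 genes, 16 had an interval that included 1, with ratios from 0.668 to 2.39.

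The JAK and STAT proteins carry the signal of most of these receptors. Of 18 JAK-STAT and SOCS genes past the level of 4, none was more than 2-fold different. Of the 23 in the list, 4 were called higher and 6 lower by the interval. Jak3, the kinase that binds the common gamma chain, had 4 and 27 reads (ratio 5.64, 95% interval 1.96 to 22.2). Stat5a, activated by the same receptors, had 31 and 84 reads (ratio 2.26, 95% interval 1.48 to 3.54). Stat3, which IL-6, IL-10 and IL-22 activate, had 2131 and 1698 reads, 1.502-fold lower. Jak3, Stat5a and Stat3 were singled out after their values were seen.

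In the list for IL-1 and TIR signalling, 1 of 18 genes past the level of 4 was more than 2-fold different. It was Nfkbiz, a nuclear regulator induced by IL-1 and IL-17, with 537 and 253 reads, 2.54-fold lower. The adaptor, kinase and NF-kB genes of that list had 4 called higher and 5 lower of 26. Of the IL-17 signalling genes, 0 of 7 passed the 2-fold rule, and 1 was higher and 3 lower of 10 by the interval. Of the genes that process interleukin precursors, 0 of 13 passed, with 2 higher and 7 lower of 14. Casp1, which cleaves the IL-1 and IL-18 precursors, had 820 and 938 reads (ratio 0.956, 95% interval 0.869 to 1.05), and it was singled out for that role. Of 9 related cytokines and receptors whose symbols lie outside the rule, 0 passed, with 4 higher and 3 lower of 20.

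Among genes known to respond to IL-22, IL-17 or IL-6, 4 of 9 past the level of 4 were more than 2-fold higher and none was more than 2-fold lower. Over all genes past that level, 5.34% were more than 2-fold different in either direction. Reg3b and Reg3g, lectins against bacteria, had 1 and 546 reads and 0 and 232 reads. S100a8 and S100a9, whose subunits form calprotectin, were also in the neutrophil list. All 4 reached the level of 4 only in the library labelled ERAP1+/-, so the level kept genes that were high there. Below the level, Lcn2, an iron-binding protein of epithelium and neutrophils, had 39 and 13 reads and was 3.59-fold lower (ratio 0.278, 95% interval 0.136 to 0.533). Saa3 (6 and 107 reads), Cxcl1 (3 and 18 reads) and Cxcl2 (0 and 17 reads), also below it, were more than 2-fold higher. The genes named below the level were singled out after their values were seen. Over the 16 genes of the list with at least 10 reads, 8 were higher and 6 lower by the interval. These genes stood beside lower reads of Il22ra1, Il17ra and Il17rc and higher reads of Il22ra2.

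Among genes known to respond to IL-4 or IL-13, 2 of 5 past the level of 4 were more than 2-fold lower. None of these 5 was more than 2-fold higher. Over all genes past that level, 5.34% were more than 2-fold different in either direction. Arg1, an arginase, had 591 and 48 reads, 14.7-fold lower, and Retnla had 272 and 155, 2.10-fold lower. Arg1 reached the level only in the WT library, so the level kept a gene that was high there. Below the level, Retnlb had 36 and 118 reads and was more than 2-fold higher (ratio 2.74, interval 1.87 to 4.10). Retnlb was singled out after its values were seen. With scaling by the total count 1 gene of the list passed the 2-fold rule. By the interval 3 of the 11 with enough reads were higher and 3 lower, so the list had no single direction.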

How the data were processed

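RNA of 3 mice per genotype was pooled and sequenced as 1 library each with a QuantSeq 3' FWD kit. The authors deposited whole-number read counts per gene symbol for each library, with no normalization. The submitters' processing notes name GRCm38, Bowtie2 and RSEM, while the study also describes STAR and HTSeq, and which of them made these counts, and with which strand setting, is not given in the sources used here. With no replicate, edgeR 4.0.16 (R 4.3.3) served only for TMM factors (0.958 for WT and 1.04 for the library labelled ERAP1+/-), and no gene was tested. Levels are reads per 1000000 (CPM), on the log2 scale with a pseudocount of 1. Ratios have exact conditional binomial 95% intervals (scipy 1.17.1). DESeq2 1.42.0 gave size factors for an alternative. The calculations were tested on simulated data.

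Genes were named if they passed the 2-fold or the interval rule, had the most reads of their role or are central to colitis. Other members with reads were named beside them, after their values were seen, to complete each receptor system. Of the signalling lists, genes were named if past 2-fold, and exceptions are stated. The call of 1 gene in the lymphoid marker list is not reported here. The members, lists and rules were chosen with earlier results of these data known. Positions come from GENCODE M21, which matched 84 of the 85 genes, 5 through older symbols, and promoter windows from RefSeq (GRCm38.p6). Read counts of 3' tags do not grow with transcript length, and levels of different genes were compared only as reads.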

Additional observations from a re-analysis of the deposited data

How the results depend on the processing

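The counts depended most on the filter for low reads. Past 2-fold there were 0 interleukin genes with the level of 4 on the log2 scale, 8 with at least 10 reads in its place and 8 with no filter. This rule took the difference of log2(CPM + 1), in which the pseudocount shrinks differences between low levels. Genes such as Il36g (4.79-fold lower by the ratio) and Il7 (2.24-fold lower by the ratio) are therefore not among the 8. With at least 10 reads, JAK-STAT and SOCS genes past 2-fold numbered 3, and genes responding to IL-22, IL-17 or IL-6 numbered 8. With scaling by the total count, 1 gene responding to IL-4 or IL-13 passed. DESeq2 size factors, and TMM factors without the epidermis and skeletal muscle lists (chosen after seeing the data), changed no call among the 41 genes. With the total count, Il10rb, Il17d, Il17rc and Il1r2 were no longer called, Il18r1, Il1rl1, Il2rb and Il4ra were called higher, and Il34 turned from just below to just above equal levels. With the deeper library thinned to the depth of the other, Il17d, Il18bp and Il1r2 were no longer called, Il18r1 was called, and Il1rl2 turned from just above to just below. The cause of these shifts was not tested. Genes with few reads are limited by depth, and variation between mice is not known from pooled libraries. No paired analysis was possible because a single library stands for each genotype.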
